A study of Mus musculus with 2 samples.

Results

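The 10 genes described here act in mitosis or in the G2 phase that precedes it: Ccnb2, Cdkn3, Aurka, Tpx2, Fam83d, Bub1, Cenpe, Top2a, Ube2s and Prc1. They were chosen because earlier readings of the same arrays showed them higher in 1 array than in the other, and they are 10 of 17097 genes that the platform annotation names through a probe set with a single gene symbol. A total of 17 probe sets carry their names. Because the choice used the contrast itself, all differences of these genes below are descriptions without a test.

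The data are 2 Affymetrix arrays of mouse embryonic stem (ES) cells of strain C57BL/6, which the labels give as grown without feeder cells and with ESGRO. Lentivirus brought in a short hairpin against Tet2, an enzyme that converts 5-methylcytosine to its oxidised forms, in the sample labelled TET2 KD, and a scrambled RNA in the sample labelled control KD. Puromycin, given to both for 72 hours, selects cells that carry the virus. From each sample, 2 µg of total RNA was labelled. With 1 array per group there is no replicate, so no difference has an error and precision is limited by the number of arrays. The samples are called the control-labelled and the Tet2-labelled array below.

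Cells that divide switch these genes on late in the cycle. Cyclin B binds the kinase CDK1 to drive entry into mitosis, Aurora A with its activator TPX2 builds the spindle, and checkpoint kinases at the kinetochore hold back anaphase until all chromosomes are attached. ES cells divide rapidly, with a short G1 phase. Many genes of this phase share a promoter layout in which CCAAT boxes, bound by NF-Y, stand before a CHR (cell cycle genes homology region), where complexes with LIN54 bind.

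Values are log2 signals as the authors deposited them, and every difference is Tet2-labelled minus control-labelled on that scale. The floor is 2.55, the median over both arrays without the manufacturer's control probe sets, and a value under it is read as a bound. Each gene is read from the probe set whose mean over the arrays is highest, and a gene reached the floor if that mean was at least the floor. Genes that reached it were counted as higher or lower from 2-fold, or 1 on the log2 scale.

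The arrays did not differ in Tet2 by 2-fold: its 2 probe sets differed by -0.26 and -0.06, so the samples are called by their labels and no direction is assigned to a loss of Tet2. Gene names come from the platform annotation, and no independent source was at hand to test that every value sits beside the right name. Of 16 listed markers of pluripotent cells with a probe set, 11, Tet2 itself among them, lay above the floor on both arrays. The other 5 lay below it on both, with Pou5f1 (1.07 and 1.29) and Nanog (1.01 and 0.97) among them. Some genes of other cell types read far above the floor on both. The brightest of their lists were Mbp of oligodendrocytes (10.32 and 10.22), Stmn2 of neurons (10.34 and 10.35) and the hemoglobin gene Hba-a1 (10.39 and 10.33). Of the listed genes with a probe set, 10 of 10 for oligodendrocytes and 10 of 12 for neurons had both values above the floor. For blood and endothelium 3 of 8 did, and the other 5 had both values under it. Mog of oligodendrocytes (3.32 and 3.18) and Ptprc of blood (3.08 and 3.17) stood only a little above it. Other differences ran alongside those of the mitotic genes. All 4 anterior pituitary markers that reached the floor (Prl, Gh, Pomc and Fshb) were at least 2-fold lower in the Tet2-labelled array. So were 7 of 9 of the nasal and airway epithelium (Bpifa1, Cyp2a5, Cyp2g1, Cyp2f2, Stoml3, Sec14l3 and Reg3g), beside 1.41% of all genes. The linear signal summed over these lists was 3601 against 71 and 826 against 150. Of the listed markers, 3 of 9 and 3 of 14 were under the floor on both arrays, among them Omp of olfactory neurons. The pituitary marker Cga, with a mean under the floor, went the other way, at 1.29 and 2.80. Xist read 9.34 in the control-labelled array and 3.62 in the other, and the Y-linked Eif2s3y 0.89 and 6.14, each in its brightest probe set. A second Eif2s3y probe set read 0.94 and 1.96. Kdm5d, also Y-linked, read 1.03 and 4.52 where brightest and stayed under the floor on both arrays in its other probe sets. The Y-linked Uty was under the floor on both arrays in each probe set (1.29 and 1.34, and 1.07 and 1.24). Oligodendrocyte, neuron, astrocyte, feeder fibroblast and blood lists had medians between -0.081 and 0.069. The pluripotency marker Klf4 (1.01) and the oligodendrocyte marker Opalin (1.13) passed 2-fold. The part of any of this in the differences of the mitotic genes was not tested.

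All 9 members that reached the floor were higher in the Tet2-labelled array by 2-fold or more, and none was lower. Across all 11174 genes that reached the floor, 131 (1.17%) were higher by that much and 158 (1.41%) lower. From 1.5-fold, 1.78% of all genes were higher and 5.42% lower, and the count of members was again 9. Since the members were picked on this contrast, their count is set beside the share of all genes only to show the scale. Differences of the 9 ran from 1.26 for Cenpe to 2.49 for Fam83d, with a median of 2.05 as measured and 1.76 with values under the floor set to it, beside a median of -0.01 and a robust SD of 0.15 over all genes. Prc1, the remaining member, had a mean under the floor. Top2a and Ube2s reached the floor only through the Tet2-labelled array, and 7 members were above it on both arrays. In bulk RNA, more cells in a phase and more RNA per cell cannot be told apart.

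**Figure D1:**
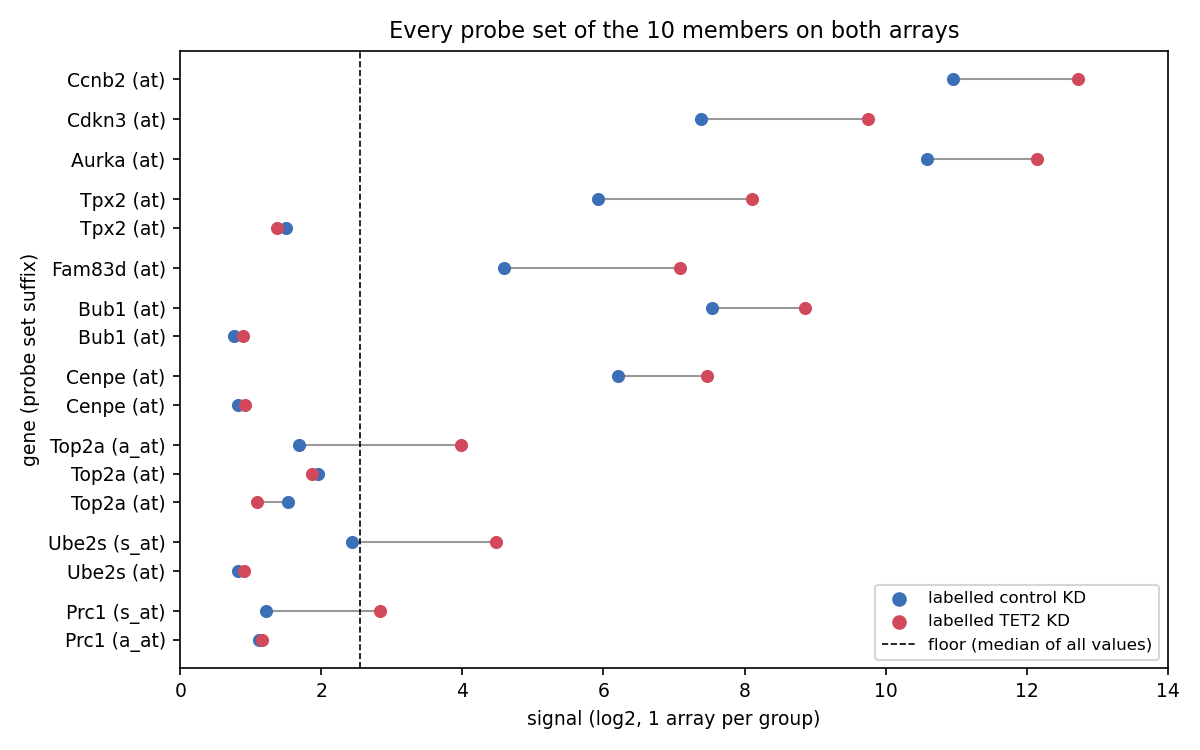
Log2 signal (x axis) of all 17 probe sets of the 10 members (y axis, with the suffix of the probe set name), with 1 point per array and the floor as a dashed line. In each gene 1 probe set was at least 2-fold higher in the Tet2-labelled array as measured, and the other 7 probe sets lay under the floor of 2.55 on both arrays.

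The promoters of these genes are shown before the single values, because their sequence had no part in the choice of members. RefSeq promoter windows of GRCm38.p6, running from 250 bases before to 50 after an annotated transcript start, were matched by symbol for 9 of the 10 genes, all but Tpx2. Stretches of 6 of them, from 120 bases before to 30 after the start, are printed 5′ to 3′, with matches to the CHR and to the CCAAT box in capitals. They were picked to show a CCAAT box before a CHR near the start in 5 genes, with the first listed start of Prc1, and a window without a match in Ube2s.
Ccnb2 (chr9:70421525-70421674, minus strand): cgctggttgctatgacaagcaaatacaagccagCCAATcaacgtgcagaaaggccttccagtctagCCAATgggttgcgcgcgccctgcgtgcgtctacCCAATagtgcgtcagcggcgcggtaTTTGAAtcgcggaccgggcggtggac
Aurka (chr2:172370541-172370690, minus strand): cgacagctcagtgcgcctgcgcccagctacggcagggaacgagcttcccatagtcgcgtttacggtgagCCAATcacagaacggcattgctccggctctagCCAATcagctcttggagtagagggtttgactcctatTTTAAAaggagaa
Fam83d (chr2:158767979-158768128, plus strand): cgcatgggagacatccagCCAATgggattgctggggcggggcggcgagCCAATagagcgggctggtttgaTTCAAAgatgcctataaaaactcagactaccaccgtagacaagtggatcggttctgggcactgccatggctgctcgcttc
Top2a (chr11:99024160-99024309, minus strand): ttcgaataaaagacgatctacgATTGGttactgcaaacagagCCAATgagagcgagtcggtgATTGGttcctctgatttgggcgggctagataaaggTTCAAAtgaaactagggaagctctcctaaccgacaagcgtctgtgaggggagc
Prc1 (chr7:80294331-80294480, plus strand): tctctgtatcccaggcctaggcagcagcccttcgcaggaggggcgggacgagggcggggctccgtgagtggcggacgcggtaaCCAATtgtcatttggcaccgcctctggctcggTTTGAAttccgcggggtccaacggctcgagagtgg
Ube2s (chr7:4812311-4812460, minus strand): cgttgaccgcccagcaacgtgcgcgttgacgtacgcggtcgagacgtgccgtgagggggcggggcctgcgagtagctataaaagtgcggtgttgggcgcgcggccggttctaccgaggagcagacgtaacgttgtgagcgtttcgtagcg

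Searched on both strands were the CHR as TTTGAA or TTTAAA, the CCAAT box as CCAAT, and an E2F core as TTTCGCG or TTTGGCG. A CHR was found in 7 of 9 windows (77.8%) and a CCAAT box in 8 (88.9%), beside 30.6% and 41.1% of all 27025 genes in the table. Among other G2/M genes, a list described further on, 83.3% of 12 higher by 2-fold or more held a CHR and 75% a CCAAT box. Of 90 short of it the shares were 46.7% and 55.6%, and of 43 G1/S and replication genes 27.9% and 58.1%. At least 2 CCAAT boxes stood in 6 of 9 windows (66.7%), against 13.3% of all genes. In those listed groups, in the same order, the shares were 41.7%, 32.2% and 34.9%. None of the 9 held the E2F core, which 2.68% of all genes held. Ccnb2 had 3 CCAAT boxes that began at positions -87, -54 and -21, counted with the first transcribed base as 1, and a CHR at 5. Top2a held 6 CCAAT boxes, the most among the members, 5 of them on the other strand. Bub1 had a pair of CCAAT boxes but no CHR as spelled here, and Ube2s had neither. A match is a description of letters and not a site of binding.

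The 7 genes with both motifs all held a CHR that followed a CCAAT box. The smallest number of bases between a CHR and a CCAAT box before it was 17 in Fam83d, 20 in Ccnb2, 21 in Cenpe, 27 in Prc1, 31 in Aurka and 33 in Cdkn3. In Top2a it was 5, from a pair that lies far before the start. Nearer the start, Top2a also has a CCAAT box at positions -58 to -54 before a CHR at -23 to -18. With a limit of 40 bases, set after these positions were seen, such a pair was present in 7 of 9 member windows (77.8%) and in 762 of 27025 genes of the table (2.82%). Among the other G2/M genes, 7 of 12 (58.3%) that were higher by 2-fold or more held such a pair. Of those that were not, 16 of 90 (17.8%) did. Of 43 G1/S and replication genes, 1 (2.33%) held it, while 14 of the 43 (32.6%) held the E2F core. The share holding the pair was thus larger among G2/M genes past 2-fold than among the others, a comparison given without a test because the values made the split.

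**Figure D2:**
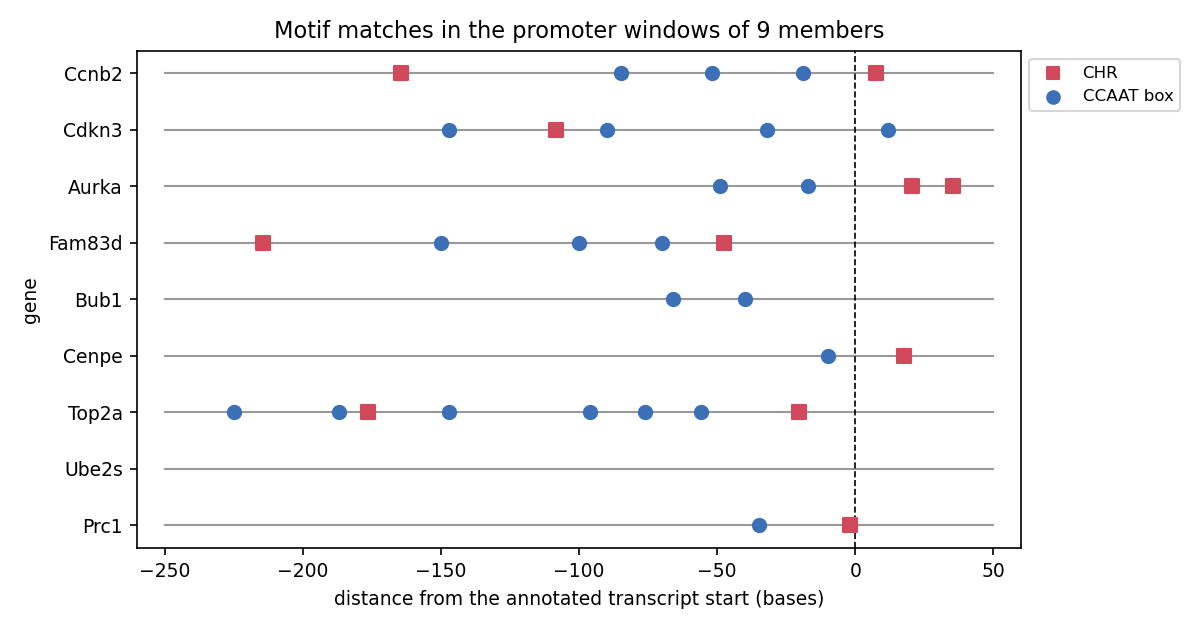
Matches to the CHR (squares) and the CCAAT box (circles) along the RefSeq promoter windows of 9 members (y axis), by distance in bases from the annotated transcript start (dashed line), for the first listed start of Prc1. In 7 genes a CHR follows a CCAAT box within 5 to 33 bases, Bub1 shows only CCAAT boxes and Ube2s no match.

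Among the regulators of CDK1, Ccnb2, cyclin B2, read 10.96 in the control-labelled array and 12.72 in the Tet2-labelled array through its only probe set. The difference of 1.76 is 3.39-fold. The second value exceeds the largest of any probe set on the control-labelled array, 11.46. Only 5 probe sets on the Tet2-labelled array do, among them that of Aurka. Quantile normalization, which gives both arrays the same set of values, left a difference of 0.72 for Ccnb2. Cdkn3, a phosphatase that removes the activating phosphate from cyclin-dependent kinases, read 7.39 and 9.74, a difference of 2.35 or 5.12-fold. Its control value equals, to all 9 decimals, that of 4 probe sets of other genes (Ppp2r5a, Commd1, Cacna2d1 and Hsp90b1), whose differences ran from -0.72 to 0.36.

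Of the spindle assembly genes, Aurka, the kinase Aurora A of the centrosome and spindle poles, read 10.59 and 12.15. The difference is 1.55, or 2.93-fold, and 0.97 after quantile normalization, just short of 2-fold. Tpx2, which binds and activates Aurora A on spindle microtubules, read 5.92 and 8.11 in its brighter probe set, 4.54-fold apart. The other Tpx2 probe set read 1.504 and 1.38, under the floor on both arrays. Fam83d, a spindle protein that helps chromosomes align, had 1 probe set, at 4.59 and 7.09. At 5.64-fold it differed most of the 7 members above the floor on both arrays.

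Among those 7, the kinetochore genes differed least as measured. After quantile normalization, however, Bub1 (1.34) and Cenpe (1.28) differed more than Ccnb2 (0.72) and Aurka (0.97). Bub1, a kinase of the spindle assembly checkpoint, read 7.54 and 8.86, or 2.496-fold apart, and 0.76 and 0.89 in a second probe set under the floor. Cenpe, a kinesin that carries chromosomes to the spindle equator, read 6.21 and 7.47, or 2.39-fold apart, and 0.82 and 0.92 in its second probe set. In the order of all 11174 genes by difference, Cenpe stood at place 89 from the top and Fam83d at place 12. No member that reached the floor lay between the threshold of 1 and 1.26, and Spag5, a spindle protein outside the members, was the nearest G2/M gene short of it at 0.91.

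The other members were under the floor in the control-labelled array, so their folds are bounds against the floor. Top2a, the topoisomerase that untangles sister chromatids, read 1.68 and 3.98 in a probe set for several of its transcripts, at least 2.68-fold higher. Its other 2 probe sets read 1.95 and 1.87, and 1.53 and 1.09. Both lay under the floor on each array. Ube2s, the ubiquitin-conjugating enzyme that lengthens chains on substrates of the anaphase-promoting complex, read 2.43 and 4.47, at least 3.78-fold higher. Prc1, which bundles microtubules of the central spindle in cytokinesis, read 1.21 and 2.84, at least 1.22-fold higher. The probe sets of Ube2s and Prc1 carry the mark for probes shared between transcripts, and without such probe sets the differences were 0.086 and 0.050. Whether these signals come from those genes alone is therefore uncertain.

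No member had a second probe set at or above the floor, so none of the differences was read by independent probes. All 7 of the other probe sets were under it on both arrays and differed by -0.43 to 0.13. In the mean of all probe sets of a gene, Tpx2 and Ube2s differed by 1.03 and 1.07. Prc1, Bub1, Cenpe and Top2a differed by 0.84, 0.73, 0.68 and 0.60. Of the 7 members that reached the floor in that mean, 5 passed 2-fold, beside 87 of all 10405 genes. Of all genes that reached the floor 32.7% had a second probe set there, and of the 131 higher by 2-fold or more 18.3% did. Among the 17 member probe sets, 7 shared their control value with at least 1 probe set of another gene or of none. On the Tet2-labelled array 0 shared their value, and 0 shared both values. In the whole set, 12.4% of probe sets shared a value with another on the control-labelled array.

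The gene with the nearest pair of values, by Euclidean distance on the log2 scale over the 2 arrays, is given as a description: it uses the values that chose the members, and signal levels of different probe sets also depend on their probes. Ccnb2 and Aurka were each other's nearest, at a distance of 0.69. Cenpe lay nearest to Ckap2, a spindle-associated protein, at 0.11. For Tpx2 (0.14) and Fam83d (0.27) the nearest was a probe set of Hspa1b, an inducible heat shock protein. The nearest of the other members were Mgat5 for Cdkn3, Uspl1 for Bub1, Greb1 for Top2a, Unc93b1 for Ube2s and Cga for Prc1, the last 3 through control values under the floor.

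**Figure D3:**
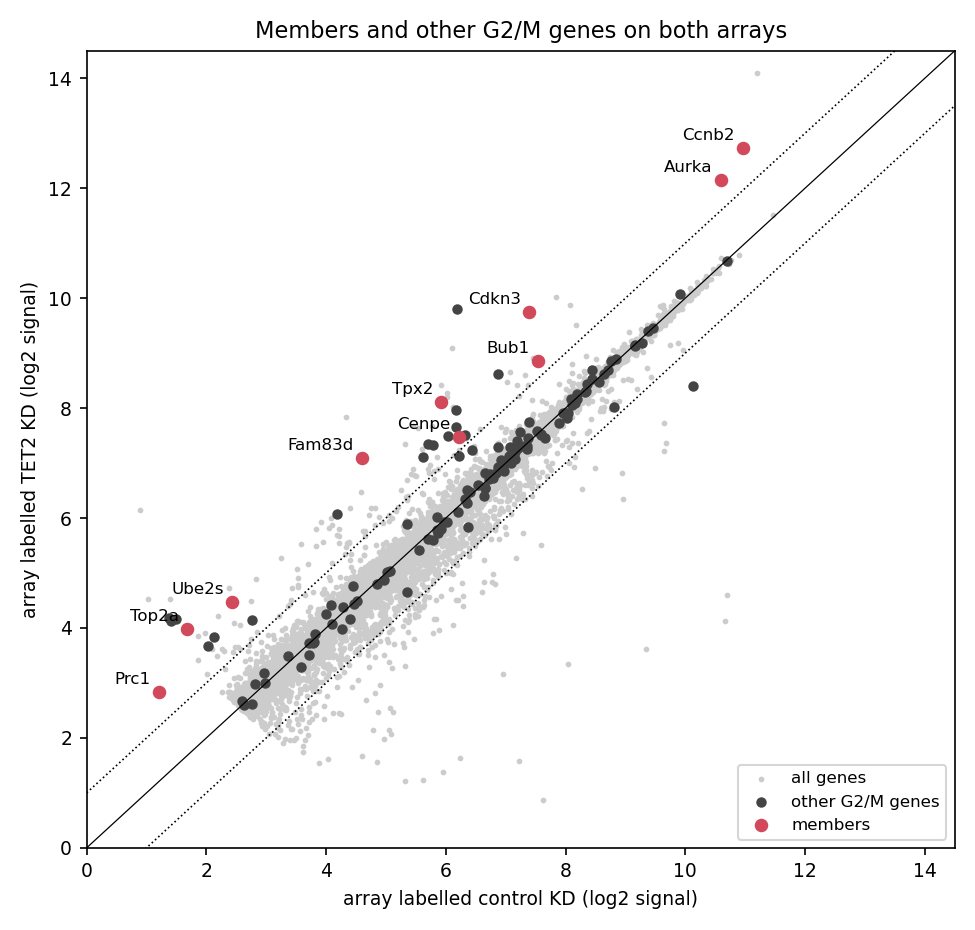
Log2 signal in the control-labelled array (x axis) against the Tet2-labelled array (y axis), 1 point per gene with a mean at or above the floor, with the 10 members (Prc1, under the floor, included) and 124 other G2/M genes marked. The solid line is equality and dotted lines are 2-fold. All 10 members lie above the upper dotted line as measured, although Prc1, Top2a and Ube2s are under the floor on the x axis and their folds are bounds, and most other G2/M genes lie near the line of equality.

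Other genes of G2 and mitosis were read from a list of 172 drawn up by function, of which 160 had a probe set and 124 a mean at or above the floor. In the Tet2-labelled array, 16 of the 124 (12.9%) were higher by 2-fold or more, beside 1.17% of all genes, and 1 was lower, beside 1.41%. Of the 16, 5 were under the floor in the control-labelled array and reached it only through the other array. Among the 119 genes at or above it on both arrays, 11 were higher, and the share of all genes under that limit was not counted. Earlier results for some listed genes, such as Hmgb3, Gtse1 and Ckap2, were known when the list was written. With the mean of all probe sets of a gene 9 of 114 were higher, beside 87 of all 10405 genes. With a floor at the 75th percentile of values 10 of 95 were, beside 80 of 6835. The list median was -0.0024, close to the -0.01 of all genes. Within 0.25 of 0 lay 92 of the 124 (74.2%), beside 81.4% of all genes, and 15 (12.1%) lay between 0.25 and 1 in size, beside 16.03%. For 2 genes not counted as higher, another probe set above the floor passed 2-fold: Pttg1, securin, differed by -0.04 where brightest and by 2.90 in a further probe set, and Clasp2, a microtubule-binding protein, by 0.32 and 1.88.

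Spindle motors and spindle assembly factors held 7 of the 16, among 34 measured (20.6%), beside 1.17% of all genes. The median difference of these 34 was 0.09. Kif20a, a kinesin of the central spindle, and Hmmr, a spindle pole protein, lay below the floor in the control-labelled array and were at least 2.96-fold and 3.05-fold higher. Kif23 (1.76), a kinesin of the midbody, Nusap1 (1.503), Kif2c (1.48), a kinesin that shortens microtubules, Ckap2l (1.38) and Ckap2 (1.20) completed the 7. The tubulin Tuba1b differed by -0.01 and Ran, the small GTPase that guides spindle assembly, by 0.10.

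Of 26 kinetochore genes 2 (7.69%) were higher by 2-fold or more, beside 1.17% of all genes, both subunits of the NDC80 complex that grips microtubules. Spc25 was under the floor in the control-labelled array and at least 3.10-fold higher, and Spc24 read 5.79 and 7.33. The rest were short of 2-fold, with Knl1 at 0.54, Cenpb at -0.27, Mis12 at 0.27, Mad2l1 at 0.17 and Cenpf at -0.06. In the list labelled cytokinesis, not all of whose genes need act in that step, 3 of 11 (27.3%) were higher, beside 1.17% of all genes. They were Shcbp1 (1.88), Cdca2 (1.65) and Racgap1, at least 2.17-fold. Depdc1a differed by 0.80, and Anln, an actin-binding protein of the cleavage furrow, by -0.10.

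Among cyclins and regulators 1 of 13 was higher, beside 1.17% of all genes: Gtse1 (1.46), a G2 phase protein that restrains p53. Ccna2, cyclin A2, differed by 0.10, Bora, a cofactor of Aurora A, by 0.36 and Mybl2, a transcription factor of G2/M genes, by -0.79. Of 9 mitotic kinases, Cit, the citron kinase of cytokinesis, differed by 1.80, but another of its probe sets above the floor by 0.04. Plk1 (-0.04), Bub1b (-0.06) and Ttk (-0.05) lay near 0, with Nek2 at 0.16 and Stk10 at -0.70. In the anaphase-promoting complex and its partners, Espl1, separase, was at least 2.44-fold higher, whereas Ube2c, the enzyme that starts the chains which Ube2s lengthens, was the 1 gene lower, at 10.13 and 8.40. The subunits Anapc4 and Cdc23 differed by -0.53 and -0.29. Among condensin, cohesin and chromatin genes Hmgb3, a high mobility group protein, was higher at 6.19 and 9.79, while Smc2 (0.06), Smc4 (0.02), Hmgb2 (-0.21) and Wapl (0.33) were short of 2-fold.

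Of the listed G2/M genes, 32 lay below the floor on both arrays, among them Cdk1 (2.14 and 1.96), Aurkb (1.57 and 1.54), Cdc20 (2.10 and 2.13), Birc5 (1.41 and 1.45) and Mki67 (1.08 and 0.97). All are core genes of dividing cells, and values under the floor give no direction. Kpna2, an importin that controls Tpx2, read 1.005 and 2.46, also under the floor on both.

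**Figure D4:**
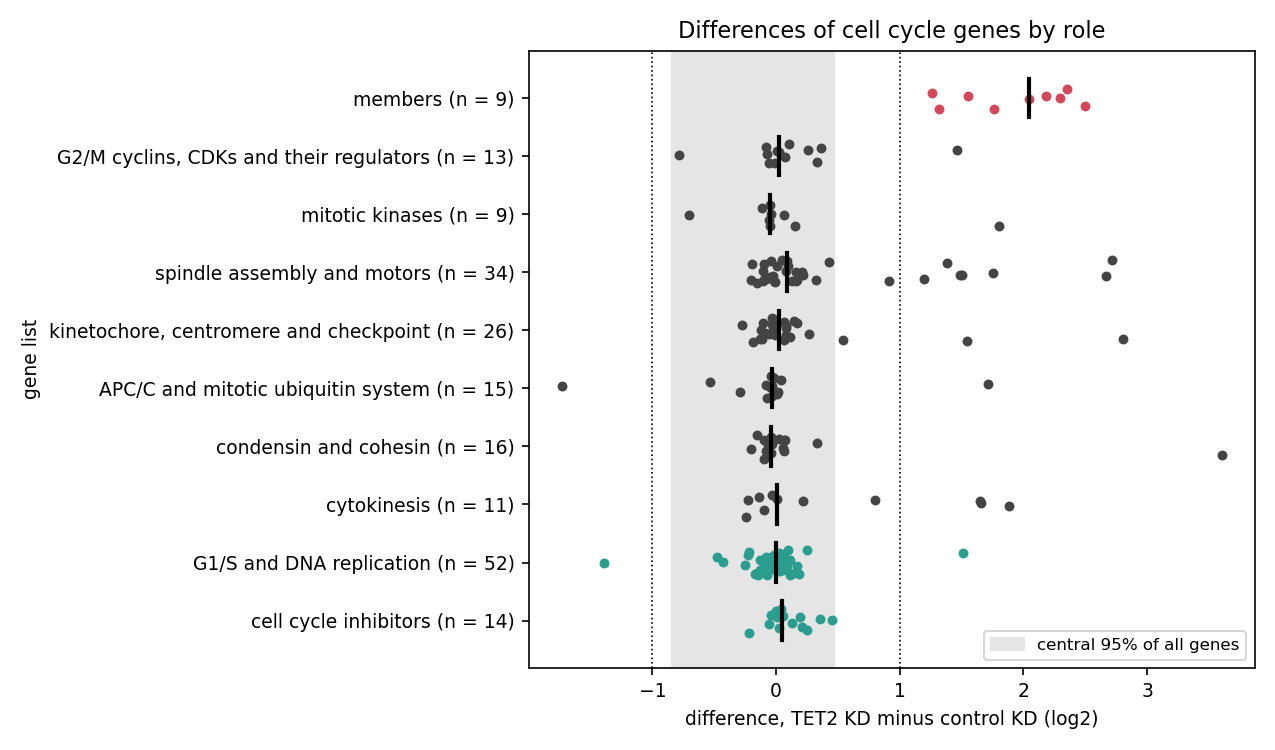
Difference of each gene with a mean at or above the floor (x axis, log2, TET2 KD minus control KD) by gene list (y axis). Thick bars mark list medians, dotted lines 2-fold and the grey band the central 95% of all genes. The 9 members lie from 1.26 to 2.49, and the medians of the other cell cycle lists plotted lie between -0.05 and 0.09.

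Genes of the earlier cycle phases were read for comparison. Of 52 G1/S and replication genes that reached the floor, 1 was higher by 2-fold or more, beside 1.17% of all genes, and 1 was lower, beside 1.41%. The higher one was E2f8, a repressor of the E2F family, at 2.55 and 4.06. Prim2, a primase subunit, was lower at 6.63 and 5.24, although its other probe set at or above the floor differed by 0.34. The list median was -0.0025, and 47 of 52 lay within 0.25 of 0, beside 81.4% of all genes. Tipin differed by -0.47 and Clspn by -0.43. Of 14 inhibitors of the cell cycle, 0 passed 2-fold in either direction, beside 1.17% of all genes higher and 1.41% lower. Btg2 differed by 0.45, Lin52 by 0.36 and Cdkn2b by 0.25. Cdkn1a, the p21 inhibitor, differed by 0.06, but by 0.92 in another probe set above the floor.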

How the data were processed

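Total RNA of 2 samples was measured on 1 Affymetrix array each. The log2 signals per probe set are those the authors deposited. The submitters' processing notes name Affymetrix Expression Console. Not given in the sources used here are its version, any background correction, how probes were summarised and how arrays were scaled, and the log base was read from the values. The table has 45141 probe sets, including 104 controls of the manufacturer. Among the remaining 45037, 28898 have 1 symbol in the platform annotation, 551 have several and 15588 have none, and only the first kind was named. List symbols were matched through the annotation and a RefSeq table of GRCm38.p6, and 327 of 354 found a probe set.

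The members and lists were chosen with earlier results of these data known. Genes named by rule are the members, in each list every gene past 2-fold, in each cell cycle list up to 3 with the largest differences, and the nearest gene by values for each member. Others, named to show levels near 0 or under the floor, were chosen after their values were seen. Differences were counted without a test, since each group has 1 array. Promoter windows came from a RefSeq table with GRCm38.p6 coordinates and were searched for exact letters. The calling code was run on simulated data with differences planted well past the threshold and normal noise of the robust SD. Such a run checks the code and cannot show that calls in these arrays are right. Scripts ran in Python 3.11.15 with pandas 2.3.3, numpy 2.4.6, matplotlib 3.10.9 and scipy 1.17.1.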

Additional observations from a re-analysis of the deposited data

How the results depend on the processing

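Alternatives covered centring each array on its median, quantile normalization, a floor at the 25th or 75th percentile, the mean of all probe sets of a gene, leaving out probe sets marked as shared between transcripts, setting values under the floor to it, and a threshold of 1.5-fold. The sign of the members' differences was fixed by their choice. After quantile normalization, members higher by 2-fold or more numbered 7 of 9, beside 131 of all 11172 genes. In the mean of all probe sets, which takes in those under the floor, they numbered 5 of 7. In that mean the other G2/M genes higher numbered 9 of 114, all genes higher 87 of 10405, and G1/S and replication genes 0 of 48 in each direction. With the floor at the 75th percentile, which leaves fewer genes, the other G2/M genes higher numbered 10 of 95 and G1/S genes higher 0 of 36. Of all 6835 genes there, 80 were higher and 60 lower. At 1.5-fold, all genes higher numbered 199, all genes lower 606 and other G2/M genes lower 3. In the mean over probe sets at or above the floor, an alternative chosen after seeing the data, 9 members and 16 other G2/M genes were higher, and G1/S genes lower numbered 0. No paired analysis was possible because each group has 1 array. Signal under the floor limits what can be read for Top2a, Ube2s and Prc1.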
